A study of Homo sapiens with 7 samples.

Results

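The inhibitor of apoptosis protein (IAP) family and its mitochondrial antagonists were followed at the mRNA level in RH30 cells, an established cell line of alveolar rhabdomyosarcoma. The members were the 9 genes BIRC2, BIRC3, XIAP, BIRC5, BIRC6, BIRC7, NAIP, DIABLO and HTRA2, chosen by gene name out of 57189 genes in the count table; 7 of them are IAPs and 2 are antagonists. The samples were 4 labelled untreated and 3 given 5 µM BV6 for 24 h, all of RH30 cells of wild-type genotype per the labels, and all from this 1 cell line. The study's methods state that RH30 cells carrying GFP and luciferase were used, and whether the untreated cells received a vehicle is not given in the sources used here. BV6 replicates 2, 3 and 4 share an experiment label with untreated replicates 2, 3 and 4, and untreated replicate 1 stands without a partner. The sources do not define this label; it was taken here to mark an experiment, and the experiments are numbered like the replicates.

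IAPs are defined by the BIR domain, a small zinc-binding fold. XIAP uses its BIR domains to block caspases, whereas cIAP1 (encoded by BIRC2) and cIAP2 (encoded by BIRC3) are RING ubiquitin ligases that work in TNF receptor complexes and keep NIK, the kinase of the non-canonical NF-κB pathway, at a low level. Smac (encoded by DIABLO) and Omi (encoded by HTRA2) leave the mitochondria in dying cells and bind BIR domains with their exposed N-termini. Smac mimetics such as BV6 copy this binding motif and are known to make cIAP1 and cIAP2 proteins ubiquitinate themselves and be degraded. The values below describe mRNA and carry no information on protein.

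The deposited counts summed to between 56684781 and 77220882 in the untreated samples and between 54070030 and 59465798 in the BV6 samples. These totals exceed the number of reads per library that the study states, and whether both mates of a pair were counted is not given in the sources used here, so a count need not be an independent fragment. The level of a gene is its CPM, the count relative to the TMM-scaled library size, and 3 counts, the smallest number taken as detected, equal 0.0389 to 0.0557 CPM. All 8 markers of the muscle lineage were above 3 counts in every sample. Their summed levels were 2070 to 2964 CPM in untreated and 1249 to 2325 CPM in BV6 samples. None passed the test. A log2 fold change below 0 was found for 7 of 8 (median -0.35), and for 12104 of all 23124 tested genes (median -0.014). The 10 leukocyte markers summed to 9.67 to 13.6 CPM in untreated and 6.82 to 11.1 CPM in BV6 samples, mostly from NKG7 (mean 9.79 and 6.82 CPM), while the defining marker PTPRC was at 0.226 to 0.753 and 0.204 to 0.801 CPM. The 2 erythrocyte markers summed to at most 0.356 CPM in untreated and 0.41 CPM in BV6 samples. The part of these markers in the results was not tested, and in bulk samples fewer cells of a type and less RNA per cell cannot be told apart.

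With BV6, the mRNAs of BIRC2 and BIRC3, which encode cIAP1 and cIAP2, rose, and no member fell by the test. BIRC3, at a low but detected level in untreated cells, had a log2 fold change of 4.86, and BIRC2, already well expressed, rose 2.91-fold. BIRC7 was at the limit of detection and was not tested. The remaining 6 members, XIAP, BIRC5, BIRC6, NAIP, DIABLO and HTRA2, had log2 fold changes between -0.29 and 0.23 and did not pass the test. So 2 of 8 tested members had an adjusted p below 0.05 (quasi-likelihood test of edgeR, Benjamini-Hochberg adjusted over 23124 genes), where 0.45% of all tested genes did, and both were higher, where 0.394% of all tested genes were. The groups did not overlap for 4 members (BIRC2, BIRC3 and DIABLO higher, BIRC5 lower), where 8.83% of all tested genes did not overlap.

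**Figure D1:**
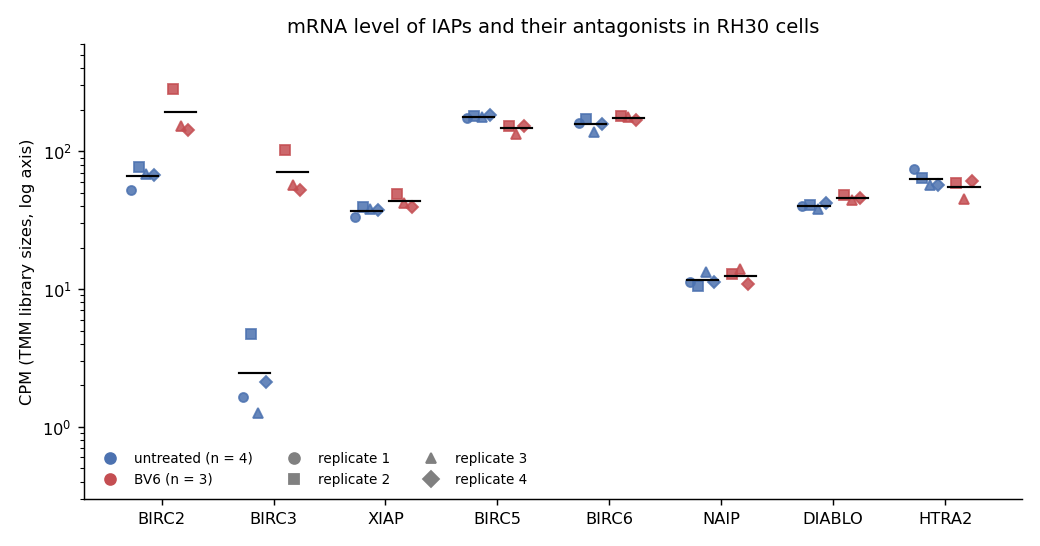
Level of each tested member in CPM on a log axis, for 4 untreated samples (blue) and 3 BV6 samples (red), with marker shapes for the replicate numbers and black lines for group means. BIRC3 moved from 1.26 to 4.74 CPM in untreated samples to 52.3 to 102 CPM with BV6 and BIRC2 from 52.0 to 76.7 CPM to 142 to 283 CPM, whereas the groups of the other genes lay close together.

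BIRC3 and BIRC2 are neighbours on chromosome 11, both on the plus strand (GRCh38, GENCODE release 44). BIRC3 spans 102317484 to 102339403 and BIRC2 spans 102347211 to 102378670, which leaves 7.81 kb between them. Their promoters, from 250 bases before to 50 bases after the start, are shown because these are the members that rose together. The sequences are from RefSeq on build GRCh38.p14. Capitals mark the match to the 10-base NF-κB consensus, the DNA motif bound by the transcription factors of that name, which was searched on both strands.
BIRC3 promoter, chr11:102317234-102317533, plus strand: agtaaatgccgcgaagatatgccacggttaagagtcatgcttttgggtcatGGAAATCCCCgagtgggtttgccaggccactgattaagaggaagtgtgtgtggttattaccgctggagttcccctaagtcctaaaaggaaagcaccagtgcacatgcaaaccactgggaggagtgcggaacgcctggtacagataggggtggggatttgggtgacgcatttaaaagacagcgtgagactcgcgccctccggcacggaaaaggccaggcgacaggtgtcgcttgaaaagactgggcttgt
BIRC2 promoter, chr11:102346964-102347263, plus strand: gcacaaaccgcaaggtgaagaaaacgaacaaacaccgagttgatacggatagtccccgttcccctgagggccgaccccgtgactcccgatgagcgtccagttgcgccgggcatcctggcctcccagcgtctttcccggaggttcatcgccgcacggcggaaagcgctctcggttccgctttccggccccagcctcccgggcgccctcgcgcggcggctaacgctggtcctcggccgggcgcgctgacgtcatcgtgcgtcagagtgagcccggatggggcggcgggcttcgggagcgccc

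The BIRC3 promoter held 1 match, GGAAATCCCC as read on the plus strand, between 199 and 190 bases before the start; the match to the consensus was on the minus strand. BIRC2 had 2 promoter entries, which overlap each other, and no match in either. Among the 7 members with a promoter entry, BIRC6 was the other one with a match, GGGGGTCCCC between 215 and 206 bases before the start of 1 of its 2 entries, a sequence that matches on both strands. The consensus was found in 7.73% of 35116 promoters of the same length and in 8.88% of the 17614 promoters of tested genes, so that its presence is a description of the letters in the window. Counted by entry, 2 of the 15 entries of the members held the consensus (13.3%). With 1 mismatch allowed, 10 of the 15 entries held it (66.7%), beside 58.8% of 3512 promoters taken at a regular interval from the table. BIRC5 and NAIP had no entry. The BIRC3 promoter had a GC content of 53.3% and the printed BIRC2 promoter of 68.7%.

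BIRC3, which encodes cIAP2, was at a low but detected level in untreated RH30 cells and had the highest log2 fold change of all 23124 tested genes. Its level was 1.64, 4.74, 1.26 and 2.12 CPM in untreated replicates 1 to 4 (126, 266, 76 and 131 counts). In BV6 replicates 2 to 4 it was 102, 57.1 and 52.3 CPM (5725, 3499 and 2817 counts). Every BV6 sample was above every untreated sample by more than the whole spread of the untreated group, and replicate 2 was the highest of its group in both conditions. The log2 fold change was 4.86 (SE 0.451, 95% interval 3.85 to 5.87, edgeR adjusted p = 0.00341). Within experiments 2, 3 and 4 the BV6 sample was 21.5, 45.2 and 24.7 times the untreated sample, so that the largest ratio came from the experiment with the lowest untreated level.

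BIRC2, which encodes cIAP1, started from a higher level and rose less. It was at 52.0, 76.7, 68.4 and 67.5 CPM in untreated replicates 1 to 4 and at 283, 152 and 142 CPM in BV6 replicates 2 to 4. The groups did not overlap, and BV6 replicate 2 stood well above the other BV6 samples, as for BIRC3. The log2 fold change was 1.54 (SE 0.237, 95% interval 1.01 to 2.07, edgeR adjusted p = 0.0269), or 2.91-fold (95% interval 2.01 to 4.2), with ratios of 3.69, 2.23 and 2.1 within experiments 2, 3 and 4. BIRC2 was higher in 3 of 3 experiments, but its call was lost with 1 untreated sample left out of the fit on condition only. The edgeR adjusted p was then 0.0892, 0.0558, 0.0993 and 0.101 for replicates 1 to 4, at log2 fold changes of 1.44, 1.61, 1.56 and 1.55. With the experiment as a replicate block, the log2 fold change was 1.37 (edgeR adjusted p = 0.0122). It was also 1.37 with the block and without untreated replicate 1 (edgeR adjusted p = 0.00301). The other samples were not left out of the fit with the block. The 95% intervals of BIRC2 and BIRC3 did not overlap; the difference between the changes of these genes was not itself tested.

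**Figure D2:**
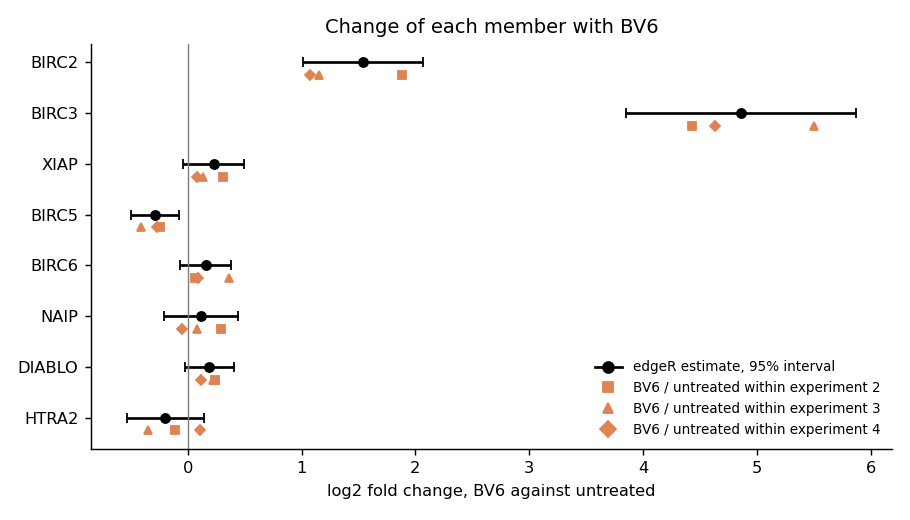
Log2 fold change of each tested member with BV6 against untreated, with edgeR estimates and 95% intervals in black and the ratio within each of the 3 experiments in orange. BIRC2 (1.54) and BIRC3 (4.86) stood apart from 0 with all of their experiments, the interval of BIRC5 (-0.50 to -0.079) lay below 0 without passing the adjusted threshold, and the other intervals included 0.

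XIAP, the IAP that blocks caspases directly, is on the X chromosome, from 123859712 to 123913972 on the plus strand. It was at 33.4, 39.4, 38.2 and 37.2 CPM in untreated replicates 1 to 4 and at 48.7, 41.8 and 39.4 CPM in BV6 replicates 2 to 4. The lowest BV6 sample equalled the highest untreated sample to within rounding, so the groups overlapped. The log2 fold change was 0.23 (95% interval -0.039 to 0.49, edgeR adjusted p = 0.666), and the upper end of this interval was below the lower end of that of BIRC2 (1.01).

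BIRC5 (survivin), an IAP that works in mitosis as a part of the chromosomal passenger complex, lies on chromosome 17 from 78214186 to 78225636 on the plus strand. Its level was tight in untreated cells, at 174, 179, 177 and 184 CPM, and was 152, 134 and 153 CPM with BV6. All BV6 samples were below all untreated samples, and the ratio within experiments 2, 3 and 4 was 0.849, 0.755 and 0.831. The log2 fold change was -0.29 (SE 0.0932, 95% interval -0.50 to -0.079), with an unadjusted p of 0.012 and an adjusted p of 0.385 in edgeR's test, and 8.39% of all tested genes had an unadjusted p below 0.05. The genes whose products sit in the same complex did not pass the test either: AURKB, its kinase, had a log2 fold change of -0.14, CDCA8 (borealin) of -0.14 and INCENP, the scaffold, of -0.31, with edgeR adjusted p values of 0.788, 0.726 and 0.638. Of 10 other mitotic genes none passed the test, and 9 had a log2 fold change below 0, as did 12104 of all 23124 tested genes. Their log2 fold changes ranged from -0.29 to 0.046 with a median of -0.13, against -0.014 over all tested genes.

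BIRC6, a very large IAP that also carries a ubiquitin-conjugating domain, lies on chromosome 2 from 32357023 to 32619571 on the plus strand. It was at 160, 171, 139 and 158 CPM in untreated and at 179, 178 and 168 CPM in BV6 samples. The BV6 samples lay at the upper end of the untreated range and overlapped it, with a log2 fold change of 0.16 (95% interval -0.069 to 0.38, edgeR adjusted p = 0.732). NAIP, known as a sensor of bacterial proteins in inflammasomes, lies on chromosome 5 from 70968166 to 71025339 on the minus strand. It was at 11.3, 10.6, 13.2 and 11.2 CPM in untreated and at 12.9, 13.9 and 10.8 CPM in BV6 samples. Its groups overlapped, with a log2 fold change of 0.12 (95% interval -0.21 to 0.44, edgeR adjusted p = 0.847). NAIP has near-identical copies in its region, and its counts are uncertain where reads could come from these.

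BIRC7 (livin) lies on chromosome 20 from 63235883 to 63240495 on the plus strand and is best known from melanoma. It had 8, 0, 5 and 5 counts in untreated and 5, 4 and 4 counts in BV6 samples, too few for a fold change. BIRC8, the eighth human IAP gene and no member here, had 0, 0, 2 and 0 counts in untreated and 0, 0 and 2 counts in BV6 samples. At this depth neither gene could be compared between the groups.

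The antagonists did not pass the test. DIABLO, which encodes Smac, lies on chromosome 12 from 122207663 to 122227456 on the minus strand. It was at 40.2, 40.4, 38.0 and 41.8 CPM in untreated and at 47.8, 44.3 and 45.6 CPM in BV6 samples. All BV6 samples were above all untreated samples, by a small margin, with ratios of 1.18, 1.16 and 1.09 within experiments 2, 3 and 4. The log2 fold change was 0.19 (SE 0.0987, 95% interval -0.028 to 0.41, edgeR adjusted p = 0.652). HTRA2, the serine protease Omi, lies on chromosome 2 from 74529596 to 74533350 on the plus strand. It was at 74.6, 64.1, 57.1 and 56.6 CPM in untreated and at 59.2, 44.7 and 61.2 CPM in BV6 samples. Its groups overlapped, and the ratio was below 1 in experiments 2 and 3 (0.924 and 0.783) and above it in experiment 4 (1.08), with a log2 fold change of -0.20 (95% interval -0.53 to 0.14, edgeR adjusted p = 0.766).

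Some of these genes share exonic bases with others. Of the exonic bases of DIABLO, 13.94% overlap B3GNT4 on the opposite strand, and 16.36% and 31.49% overlap 2 genes on the same strand that the annotation gives by identifier only. Of those of HTRA2, 27.49% overlap LOXL3 and 4.85% overlap AUP1, both on the opposite strand. The libraries were stranded, but whether the counting used strand is not given in the sources used here. Use of strand would not separate the same-strand overlaps of DIABLO, and these 2 genes are not in the count table under their identifiers. The values of DIABLO and HTRA2 are therefore uncertain for reads on shared bases. The percentages are shares of exonic bases and not of reads.

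Levels of different genes were compared per length, as CPM per kb of the union of a gene's exons. In untreated cells BIRC5 was the most abundant member at 46.8 ± 1.07 CPM per kb (SD, n = 4), followed by HTRA2 at 18.5 ± 2.46, BIRC2 at 14.6 ± 2.28, BIRC6 at 8.46 ± 0.732, DIABLO at 5.76 ± 0.226, XIAP at 3.89 ± 0.274, NAIP at 1.15 ± 0.11 and BIRC3 at 0.326 ± 0.21 CPM per kb. HTRA2 and BIRC2 were the neighbours in this order whose samples overlapped (16.6 to 21.9 and 11.5 to 17 CPM per kb). Among the 17940 tested genes with a known length, BIRC5 was at the 95.4th percentile of untreated levels, BIRC2 at the 82.5th, XIAP at the 52.5th and BIRC3 at the 17.9th. With the length of the longest transcript in place of the exon union, DIABLO was at 12.9 and BIRC6 at 9.69 CPM per kb, which exchanged their places.

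With BV6 the order changed at the cIAPs. BIRC2 reached 42.6 ± 17.5 CPM per kb (SD, n = 3), at 62.7, 33.7 and 31.3 in BV6 replicates 2 to 4. BIRC5 was at 39.8, 35.1 and 40 in the same samples, so BIRC2 was above it in replicate 2 only. BIRC3 reached 9.41 ± 3.66 CPM per kb, at 13.6, 7.62 and 6.99 in BV6 replicates 2 to 4. BIRC6 was at 9.66, 9.58 and 9.06 there, so BIRC3 was likewise above it in replicate 2 only. The mean levels corresponded to the 95th percentile of BV6 levels for BIRC2 and the 73.5th for BIRC3.

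The makeup of the IAP mRNA pool shifted with them. The summed level of the IAPs, per length, was 70.6 to 79 CPM per kb in untreated samples and 91.8 to 132 CPM per kb with BV6. BIRC2 and BIRC3 together were 16.6% to 22.3% of this sum in untreated samples and 41.4% to 57.7% with BV6, while BIRC5 went from 59.4% to 64.5% in untreated samples to 30.1% to 43.2% with BV6. These shares are of 1 sum, so that a higher share of some members lowers that of the others. The cIAPs stood at 3.35 to 4.26 times XIAP in untreated samples and at 9.27 to 14.9 times XIAP with BV6. XIAP stood at 0.606 to 0.734 times DIABLO in untreated samples and 0.632 to 0.745 times DIABLO with BV6, ranges that overlap. With the longest transcript as length the same ratio was 0.3 to 0.363 in untreated samples and 0.312 to 0.369 with BV6, so that its size depends on the length used.

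The ratio of BIRC2 to BIRC3, per length, varied among untreated samples, with values of 52.7, 26.8, 89.8 and 52.8 in replicates 1 to 4. In BV6 replicates 2 to 4 it was 4.60, 4.42 and 4.48. The groups did not overlap, and the BV6 samples lay close together even though the levels of both genes in replicate 2 were the highest. This ratio is taken within a sample and does not depend on the library scaling.

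**Figure D3:**
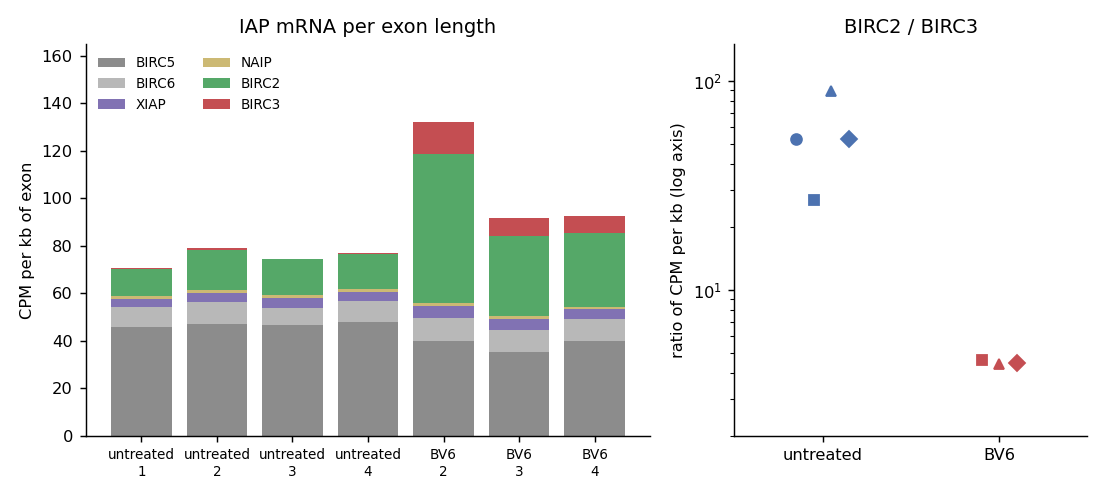
Left, summed IAP mRNA per sample in CPM per kb of exon, stacked by gene; right, the ratio of BIRC2 to BIRC3 per length on a log axis, in blue for untreated and red for BV6 samples, with circles, squares, triangles and diamonds for replicates 1 to 4. The share of BIRC2 and BIRC3 was larger in all BV6 samples, and their ratio was 26.8 to 89.8 in untreated and 4.42 to 4.60 in BV6 samples.

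Genes that act with the cIAPs were mostly without a call. Of 7 genes of cIAP complexes, 1 was called higher in the fit on condition only, where 0.394% of all tested genes were. The other 6 did not pass the test in this fit. The list was written with earlier results of these data known. TRAF1, an adaptor that binds TRAF2 and the cIAPs, was at 10.6, 15.2, 8.58 and 14.1 CPM in untreated and at 232, 89.3 and 114 CPM in BV6 samples. Its groups were far apart, and replicate 2 was again the highest of each group. The log2 fold change was 3.58 (SE 0.332, edgeR adjusted p = 0.00341), and TRAF1 was called with any 1 sample left out. TRAF2, the adaptor that recruits cIAPs, had a log2 fold change of 0.20 (edgeR adjusted p = 0.873), and RIPK1, the kinase that cIAPs ubiquitinate, of 0.13 (edgeR adjusted p = 0.84).

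MAP3K14, which encodes NIK, was at 41.9, 52.3, 26.5 and 32.6 CPM in untreated and at 84.0, 48.4 and 72.2 CPM in BV6 samples. The groups overlapped, but the BV6 sample was higher in 3 of 3 experiments, with log2 ratios of 0.68, 0.87 and 1.15. Its log2 fold change was 0.83 (SE 0.246, edgeR adjusted p = 0.307) in the fit on condition only. With the experiment as a replicate block it was 0.90 (SE 0.114, edgeR adjusted p = 0.0163). TRAF3, which links NIK to the cIAPs, had a log2 fold change of 0.39 without the block (edgeR adjusted p = 0.714). With the block it was 0.44 (edgeR adjusted p = 0.0904). The block changed the call of no member.

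CASP9, the initiator caspase of the mitochondrial pathway and a target of XIAP, had a mean of 20.6 CPM in untreated and 19.6 CPM in BV6 samples. Its log2 fold change was -0.076 (edgeR adjusted p = 0.914). Of 8 other antagonists and regulators of IAPs, 7 were tested and none was called, with log2 fold changes between -0.16 and 0.19. XAF1, an antagonist of XIAP, was not tested at means of 0.0747 and 0.131 CPM, and SEPT4, the gene of the antagonist ARTS, was at 0.975 and 1.11 CPM.

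The genes around BIRC2 and BIRC3 on chromosome 11 were also examined. Of 17 genes in the count table within 500 kb of either gene, 3 passed the filter on low counts and none was called. YAP1, the transcriptional coactivator that lies 84.1 kb before BIRC3, was at 140, 155, 152 and 160 CPM in untreated and at 219, 215 and 183 CPM in BV6 samples. TMEM123, which lies 17.7 kb after BIRC2 on the minus strand, was at 447, 526, 589 and 554 CPM in untreated and at 624, 766 and 676 CPM in BV6 samples. In both genes all BV6 samples were above all untreated samples, where the groups did not overlap for 8.83% of all tested genes, with log2 fold changes of 0.44 for YAP1 and 0.38 for TMEM123 and edgeR adjusted p values of 0.156 and 0.371. Over all pathway and neighbour lists, 1 of 31 tested genes was called, where 0.45% of all tested genes were, with a median log2 fold change of -0.064 beside -0.014 over all tested genes.

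**Figure D4:**
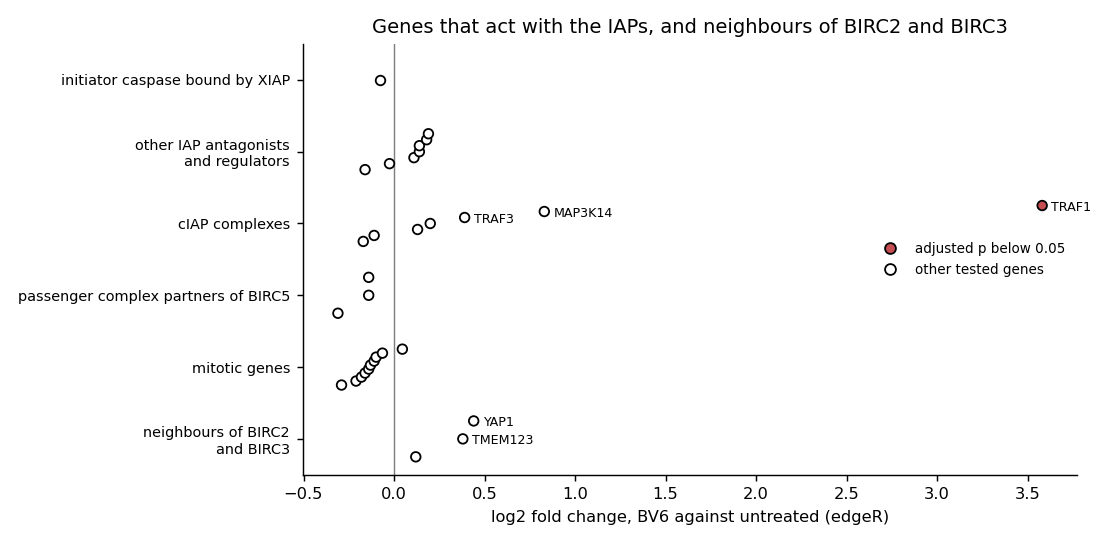
Log2 fold change from edgeR of each tested gene among CASP9 (top), other antagonists and regulators, cIAP complexes, passenger complex partners, mitotic genes and chromosomal neighbours, with a filled point for an adjusted p below 0.05. TRAF1 (3.58) is the filled point, and the others lie between -0.31 and 0.83.

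The genes with the pattern most like BIRC3, BIRC2 and BIRC5 were listed by Pearson's r of log2 CPM over the 7 samples, among 17059 genes with a mean of at least 1 CPM. The samples form 2 groups and share their libraries between genes, so r is given as a description. For BIRC3 these were SLC43A3 (r = 0.998, Spearman's rho = 0.964), AP000781.2 (r = 0.996, rho = 0.964) and PRDX1 (r = 0.992, rho = 1.000), and 222 genes had r above 0.9. BIRC2 was at place 85 of this list (r = 0.949) and DIABLO at place 128 (r = 0.932). For BIRC2 they were FTLP2, NSMCE3 and GORAB, with r of 0.990, 0.989 and 0.988 and rho of 0.964, 0.964 and 0.857. Here 202 genes had r above 0.9, and XIAP was at place 99 (r = 0.929). FTLP2, NSMCE3 and GORAB were not called (edgeR adjusted p = 0.205, 0.382 and 0.582). For BIRC5 they were TXN2, AC026471.6 and AL590004.3, with r of 0.994, 0.982 and 0.965 and rho of 0.964, 0.857 and 0.964. Here 71 genes had r above 0.9. TXN2, AC026471.6 and AL590004.3 were not called (edgeR adjusted p = 0.396, 0.312 and 0.143). SLC43A3, AP000781.2 and PRDX1, named for BIRC3, were called (edgeR adjusted p = 0.011, 0.0138 and 0.0116).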

How the data were processed

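The authors made stranded libraries from poly(A)+ RNA of RH30 cells and sequenced both ends. Reads were aligned with STAR 2.6.1d to build GRCh38 (submitters' processing notes) and counted with a union model of Ensembl release 95 isoforms. The authors deposited raw counts per gene; the counting program, its use of strand and its handling of reads on several genes are not given in the sources used here. Groups were taken from the labels. Here, genes were filtered with filterByExpr (minimum count 10), scaled by TMM and compared in R 4.3.3 with edgeR 4.0.16 (glmQLFit and glmQLFTest, condition only) and Benjamini-Hochberg adjustment over all 23124 tested genes; called means an adjusted p below 0.05. The methods of the study name DESeq2 and no design formula, and DESeq2 1.42.0 and limma 3.58.1 (voom) were alternatives. Samples of the same experiment label deviated together from their group means (r = 0.515, 0.322 and 0.197 over the 3 experiments with both conditions). With all 7 samples these values were 0.462, 0.438 and 0.0847, and the last was below that of some samples of different labels (up to 0.278). The fit with a replicate block was therefore run beside the main one. The labels do not say that replicates were separate cultures beyond the experiment label, and p-values then measure only the spread between these samples. Lengths and coordinates came from GENCODE release 44 (37197 genes matched), promoters from RefSeq. The fits were tested on simulated data with 200 changed genes.

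The members and lists were chosen with earlier results of these data known. Named were all 9 members, BIRC8, the called list genes, a fixed set of pathway genes, the direct neighbours of BIRC2 and BIRC3, and the 3 genes most like BIRC3, BIRC2 and BIRC5. NKG7, PTPRC and the overlapping genes were named outside this rule after their values were seen. Some genes of the planned lists are not reported here. A planned comparison of protein sequences was not run. The counts summed to 54070030 to 77220882 per sample, and intervals of fold changes are 95% intervals from edgeR's estimate and standard error.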

Additional observations from a re-analysis of the deposited data

Results flagged for a closer look

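Among 37 genes named in the text, 4 had an untreated sample far from the other 3, by the gap to its nearest neighbour over the whole range of the group (Dixon's 95% criterion), and chance alone gives about 1 such group in 20. INCENP was at 149 CPM in untreated replicate 1 and at 127 to 128 CPM in the other untreated samples (gap over range 0.912). TXN2 was at 63.4 CPM in untreated replicate 4 and at 59.9 to 60.3 CPM in the other untreated samples (gap over range 0.882). PTPRC was at 0.753 CPM in untreated replicate 1 and at 0.226 to 0.285 CPM in the other untreated samples (gap over range 0.889). BIRC8 had 2 counts in untreated replicate 3 and 0 in the other untreated samples (gap over range 1), which is below the 3 counts taken as detected. No member was among them.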

How the results depend on the processing

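BIRC3 was called under each alternative run, with log2 fold changes of 4.50 to 5.39 when 1 sample was left out and of 4.81 to 4.99 under the other settings (DESeq2 with and without replicate block, RLE factors, no filter, limma-voom, counts halved in case both mates were counted, and the replicate block with or without untreated replicate 1). The number of called members was 2 under these settings. It was 1 to 2 when 1 sample was left out of the fit without the block. There BIRC2 (log2 fold change 1.16 to 1.71, edgeR adjusted p 0.0178 to 0.101) lost its call without any 1 untreated replicate. With the block, untreated replicate 1 was the only sample left out, and BIRC2 kept its call. The number of called list genes rose from 1 to 2 with the replicate block, to 2 with the block on the 3 experiments with both conditions, and to 3 with DESeq2 and the block (TRAF1, TRAF3 and MAP3K14). The block changed no call among the members. Over all tested genes, 104 of 23124 were called, 218 of 23124 with the block, 408 of 24382 with DESeq2, 513 of 21899 with DESeq2 and the block, 242 of 43421 without the filter, 341 of 22746 with the block on the 3 experiments and 38 to 89 with 1 sample left out; the cause was not tested. Members with non-overlapping groups numbered 4, 5 with the total count as scale, and 4 to 6 with 1 sample left out. The share over all tested genes (8.83%) was taken only for all 7 samples on the TMM scale. Groups of fewer samples are apart more easily, so the higher counts are no result about the members. No value changed its direction among these results. With the longest transcript as length, untreated levels were 65.8 for BIRC5, 35 for HTRA2, 12.9 for DIABLO, 9.69 for BIRC6, 4.31 for XIAP and 1.63 CPM per kb for NAIP. With 1 mismatch allowed, 7 of the 7 members with a promoter entry held the NF-κB consensus in at least 1 entry. Some members have several entries, and no share by gene was taken over all promoters. By entry the share was 66.7%, beside 58.8% of 3512 promoters, so the count is no result about the members. Depth limits BIRC7, BIRC8 and XAF1.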
